A study of Oryctolagus cuniculus with 10 samples.

Results

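The rabbit genes described here, 5 in number, moved together in RNA level across fetal lungs: ENSOCUG00000025949, ENSOCUG00000022401, ENSOCUG00000022710, ENSOCUG00000024894 and ENSOCUG00000026654. They are 5 of the 13429 Ensembl identifiers in the deposited table, and all 5 are among the 13379 that reached at least 1 CPM (the count scaled to a library total of 1000000) in at least 2 libraries. They were listed by identifier because their levels varied together and were high with a hernia, so the levels, differences and correlations below chose them and are given as descriptions. Calls of the 5 genes by tests across the whole table are printed beside the share of all genes called, and support nothing about them. Messenger RNA of the left upper lobe (its lateral aspect) was sequenced in New Zealand rabbit fetuses at E30.5. Controls (n = 3) had neither operation by their label, and whether they had a sham operation is not given. The hernia group (n = 2) had a left diaphragmatic hernia made at E25, the occlusion group (n = 2) had the trachea occluded at E27, and the remaining group (n = 3) had the hernia and then the occlusion. The labels name neither sex nor litter nor genotype, and do not state that each library is a separate animal.

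In congenital diaphragmatic hernia, abdominal organs enter the chest through a gap in the diaphragm and the lung on that side stays small and structurally immature. The fetal lung secretes fluid into its airways, and closing the trachea keeps that fluid in, which stretches the lung and makes it grow. The rabbit model joins both operations so that the untreated and the occluded hernia lung can be set beside lungs with neither.

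What these 5 genes encode is not given here. The deposited table pairs no identifier with a symbol, and 0 of the 13429 identifiers matched the reference table of 38822 RefSeq rabbit genes, which describes a different assembly and holds no Ensembl identifier. No symbol, position, function or sequence is therefore printed for any gene, and the lung markers listed for a check of the tissue could not be applied. Gene lengths were not used, so values are compared between libraries for 1 gene at a time, and not between genes. Total counts ran from 16.4 M in hernia replicate 1 to 22.2 M in hernia replicate 2, so the shallowest and the deepest library both belong to the hernia group. In bulk tissue, more cells that carry an RNA and more RNA in each cell cannot be told apart.

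All 5 genes were near the bottom of detection in the controls and in the lungs with hernia and occlusion, and lay far higher in both hernia lungs. One occluded lung without a hernia also carried them, at levels near those of hernia replicate 1. The name under which the genes were grouped, high in hernia lungs, thus covers 2 of the 3 libraries with high levels. Summed over the 5 genes, the counts were 55, 61 and 43 in the controls, 2791 and 7834 with a hernia, 2558 and 118 with occlusion, and 38, 43 and 61 with hernia and occlusion. The largest of these sums made up 0.0352% of its library.

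**Figure D1:**
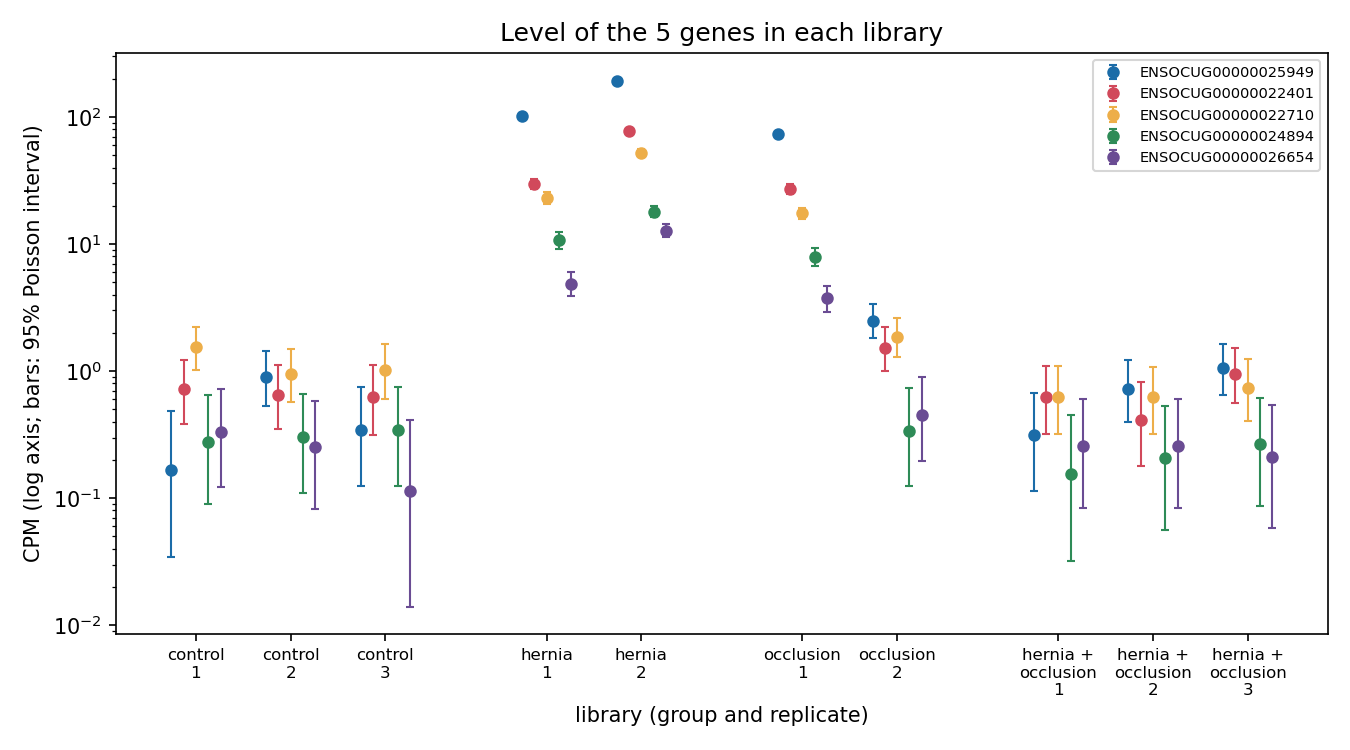
CPM of the 5 genes (log axis) in each of the 10 libraries, by group and replicate; bars are 95% Poisson intervals of the count, which cover counting error only. Both hernia libraries and occlusion replicate 1 lie between 3.74 and 192 CPM, and the other 7 libraries between 0.114 and 2.50 CPM.

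ENSOCUG00000025949 had the widest range of the 5. Its level was 0.166, 0.903 and 0.342 CPM in controls 1 to 3, 102 and 192 CPM in the hernia libraries, 73.0 and 2.50 CPM in the occlusion libraries, and 0.311, 0.723 and 1.06 CPM after hernia and occlusion. Both hernia libraries and both occlusion libraries lay above every control, while hernia with occlusion overlapped the controls. The control values rest on 3, 18 and 6 counts, and the hernia values on 1669 and 4269. Pooled over libraries, the hernia level was 317-fold the control level (95% counting interval 217 to 481, which covers counting error only). It was 221-fold the level after hernia and occlusion (162 to 309.5).

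ENSOCUG00000022401 stood at 0.718, 0.652 and 0.627 CPM in the controls, 29.8 and 77.1 CPM with a hernia, 27.2 and 1.53 CPM with occlusion, and 0.623, 0.413 and 0.955 CPM with both operations. The controls differed little among themselves, with a mean of 0.666 ± 0.0469 CPM (SD, n = 3). The mean after hernia and occlusion was 0.664 ± 0.273 CPM (SD, n = 3), and the ranges of these groups overlapped. Pooled counts gave a hernia level 85.7-fold that of controls (counting interval 62.0 to 122).

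ENSOCUG00000022710 had 28, 19 and 18 counts in controls 1 to 3, or 1.55, 0.953 and 1.03 CPM. It reached 23.1 and 52.4 CPM with a hernia, and 17.4 and 1.87 CPM with occlusion. After hernia and occlusion it stood at 0.623, 0.620 and 0.742 CPM, so that every library of this group lay below every control. The pooled level there was 0.565 of the control level (counting interval 0.369 to 0.857).

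ENSOCUG00000024894 had 5 or 6 counts in every control, equal to 0.276, 0.301 and 0.342 CPM. The hernia libraries stood at 10.7 and 18.0 CPM, and occlusion replicate 1 at 7.94 CPM. Occlusion replicate 2, at 0.340 CPM, lay just inside the control range; with TMM library sizes, a scaling by the trimmed mean of M-values, it lay just above it. Hernia with occlusion gave 0.156, 0.207 and 0.265 CPM, below every control, but on 3 to 5 counts a library. The pooled ratio to controls was 0.683 with a counting interval of 0.298 to 1.52, so a difference was not detectable at this depth.

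ENSOCUG00000026654 rests on few counts in most libraries, with 6, 5 and 2 in the controls (0.331, 0.251 and 0.114 CPM). The hernia libraries had 80 and 284 counts (4.88 and 12.8 CPM), and the occlusion libraries 74 and 8 (3.74 and 0.454 CPM). After hernia and occlusion the level was 0.260, 0.258 and 0.212 CPM, inside the control range. The hernia level pooled over libraries was 40.3-fold that of controls, with a counting interval of 23.3 to 76.4.

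Group means followed one order at the top for every member, with hernia first and occlusion alone second. For ENSOCUG00000025949 the mean was 147 ± 63.7 CPM (SD, n = 2) with a hernia and 37.7 ± 49.9 CPM (SD, n = 2) with occlusion. The SD of the 2 occlusion libraries exceeded their mean for each of the 5 genes. The 2 lower groups, controls and hernia with occlusion, overlapped for ENSOCUG00000025949, ENSOCUG00000022401 and ENSOCUG00000026654. For ENSOCUG00000022710 and ENSOCUG00000024894 the controls ranked above hernia with occlusion, at 1.18 ± 0.323 and 0.306 ± 0.0333 CPM (SD, n = 3), against 0.662 ± 0.0698 and 0.209 ± 0.0548 CPM (SD, n = 3) after both operations.

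On the log2(CPM + 0.5) scale, which understates changes of low genes, the 5 members lay between 3.54 and 7.25 higher with a hernia than in controls, with a median of 4.42. The median over all tested genes was 0.04, with 1% of genes below -1.02 and 1% above 0.996. ENSOCUG00000025949 and ENSOCUG00000022401 were the 2 genes with the largest difference of either sign among 13379. ENSOCUG00000022710, ENSOCUG00000024894 and ENSOCUG00000026654 held places 4, 6 and 12. Every hernia library lay above every control for 5 of 5 members and for 20.7% of all tested genes. The edgeR quasi-likelihood test (Benjamini-Hochberg adjusted p under 0.05 over all genes) called 0 of 5 members and 0.00747% of all genes. DESeq2 called 5 of 5 members higher and 0.381% of all genes higher, and edgeR fitted to these groups alone called 5 of 5 higher, against 0.0607% of genes. The members were chosen on this contrast, so nothing is read from these counts. In the fit to these groups alone, all members but ENSOCUG00000022710 also passed the filter of 1 CPM only through the hernia libraries. The hernia libraries carry the title stems M38 and M39 and all others M83 to M98, and no label explains the stem, so stem and hernia cannot be told apart within this comparison. Occlusion replicate 1, with high levels of all 5 genes, carries the stem M86.

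Hernia with occlusion against hernia alone gave the mirror image. The hernia libraries carry title stems of their own here too, so stem and occlusion cannot be told apart within this comparison. The members lay between 3.51 and 6.92 lower (differences of -3.51 to -6.92, median -4.93, on the log2 scale), against a median of -0.01 over all tested genes. In size of the difference they held places 2, 5, 7, 9 and 10 among 13379 genes. All 5 lay below every hernia library after occlusion, as did 20.6% of tested genes. The edgeR test called 0 of 5 members and 0.00747% of genes. DESeq2 called 3 of 5 lower, with no adjusted p for the other two, and 2.77% of genes lower. In edgeR on these groups alone, 4 of 5 members and 0.053% of genes were lower. No member reached 1 CPM in at least 2 libraries with hernia and occlusion, so each passed the filter of that fit only through the hernia libraries. The direction of those calls was thus largely set by the filter. The spread is estimated over all groups, and the fit changed when occlusion replicate 1 or 2 was left out. Then 5 of 5 members were called lower, with 1.47% and 1.41% of genes, and 5 of 5 were called higher for hernia against control, with 0.0673% of genes in both fits.

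Like the controls, the lungs with hernia and occlusion held all 5 members at low levels. Pooled ratios to controls ran from 0.565 for ENSOCUG00000022710 (counting interval 0.369 to 0.857) to 1.43 for ENSOCUG00000025949 (0.858 to 2.43). For ENSOCUG00000026654 the interval, 0.454 to 2.41, was wide, so equal levels were not shown. On the log2 scale, which understates changes of low genes, differences ran from -0.51 for ENSOCUG00000022710 to 0.33 for ENSOCUG00000025949. Their median was -0.03, beside 0.03 over all tested genes. In 2 of 5 members every library lay below every control, as in 10.2% of tested genes. No member was called here by edgeR, with 0.0224% of genes called, or by DESeq2, with 3.48%. This comparison shares its libraries with the 2 before it, so the 3 are not independent of each other.

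Occlusion without a hernia split the pair of libraries. Against the pooled controls, occlusion replicate 1 was 150-fold higher for ENSOCUG00000025949 (counting interval 103 to 229), 40.9-fold for ENSOCUG00000022401 (29.3 to 58.7) and 16.0-fold for ENSOCUG00000026654 (8.80 to 31.4). Replicate 2 was 5.14-fold the control level for ENSOCUG00000025949 (3.11 to 8.63), 2.30-fold for ENSOCUG00000022401 (1.35 to 3.88) and 1.60-fold for ENSOCUG00000022710 (1.02 to 2.47). For ENSOCUG00000024894 and ENSOCUG00000026654 its intervals, 0.359 to 2.96 and 0.697 to 5.05, held 1. For ENSOCUG00000025949, ENSOCUG00000022401 and ENSOCUG00000022710 they lay above 1. The share of all genes with such an interval above 1 was not computed, so nothing particular to the members is read from this. These intervals also leave out the spread among the controls. For ENSOCUG00000022401 and ENSOCUG00000022710 the counting interval of the CPM of replicate 2 overlapped that of every control. For ENSOCUG00000025949 it overlapped that of no control.

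Between the 2 occlusion libraries, ENSOCUG00000025949 differed 29.2-fold (counting interval 21.7 to 40.4) and ENSOCUG00000024894 differed 23.3-fold (10.5 to 64.5). The smallest of the 5 ratios was 8.24-fold for ENSOCUG00000026654 (3.97 to 19.8). On the log2 scale these differences ran from 2.15 to 4.62, where the median absolute difference of all tested genes between the same libraries was 0.29. Between 0.187% and 1.71% of tested genes differed at least as far as the respective member. Every occlusion library lay above every control for 4 of 5 members and for 9.34% of tested genes; with TMM library sizes it was 5 of 5 and 10.2%. The mean log2 difference from control, a median of 1.98 over the members, was 0.52 without replicate 1 and 3.44 without replicate 2. The edgeR test called 0 of 5 members and 0.0149% of genes. It called 0 of 5 without replicate 1, with 0.015% of genes higher, and 4 of 5 higher without replicate 2, with 0.0524% of genes. Each of these fits leaves 1 occlusion library, which is assumed to vary like the other groups. Fitted to these groups alone it called 0 of the 3 members that passed the filter, and 0.0076% of genes. DESeq2 called 4 of 5 higher, with 0.0897% of genes.

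Hernia with occlusion lay below both occlusion libraries in 5 of 5 members and in 7.09% of tested genes. The log2 differences ran from -1.44 for ENSOCUG00000026654 to -3.68 for ENSOCUG00000025949. Their median, -2.49, was -0.83 without occlusion replicate 1 and -3.95 without replicate 2. One library thus sets most of the size of this difference. The edgeR test called 0 of 5 members and 0 of 13379 genes (0.0%). An unadjusted p under 0.05 was held by 633 genes, no more than that cutoff alone would give. DESeq2 called 4 of 5 lower, with 0.164% of genes. For the interaction, the occlusion effect with a hernia minus that without, edgeR called 0 of 5 members and 0.0% of genes, although 1324 genes had an unadjusted p under 0.05. DESeq2 called 5 of 5 lower for it, with 0.232% of genes.

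The title stem M83 is shared by control replicate 2 and hernia with occlusion replicate 1, and both were low in all 5 genes. Their ratio was 2.90 for ENSOCUG00000025949 (counting interval 1.10 to 8.92), and the intervals of the other 4 members held 1. The stem M88 is shared by occlusion replicate 2 and hernia with occlusion replicate 3. There the occlusion library was 2.35-fold higher for ENSOCUG00000025949 (1.36 to 4.22) and 2.52-fold higher for ENSOCUG00000022710 (1.31 to 5.10). No stem holds both a library with high and one with low levels of the 5 genes, so the contrast between them was not measured within a stem.

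The 2 hernia libraries also differed from each other, and in one direction for every member. Hernia replicate 2 exceeded replicate 1 by 1.88-fold for ENSOCUG00000025949, 2.59-fold for ENSOCUG00000022401, 2.27-fold for ENSOCUG00000022710, 1.67-fold for ENSOCUG00000024894 and 2.62-fold for ENSOCUG00000026654. The lowest of the 5 counting intervals ran from 1.40 to 2.01, so each ratio exceeded counting error. The share of all genes for which this holds was not computed. The median absolute log2 difference over all genes between these libraries was 0.19, and 4.73% of genes differed by at least 1. Between 2.50% and 8.24% of tested genes differed at least as far as the respective member. Occlusion replicate 1 was close to hernia replicate 1. The ratio of hernia replicate 1 to it ran from 1.10 for ENSOCUG00000022401 (0.967 to 1.24) to 1.40 for ENSOCUG00000025949 (1.30 to 1.498). Between 29.4% and 75.9% of tested genes differed at least as far between these libraries as the respective member.

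Counts of 1 member divided by counts of another show how far the 5 kept their proportions. Among both hernia libraries and occlusion replicate 1, the ratio of a pair moved by between 1.15-fold and 1.56-fold over the 10 pairs, with a median of 1.28. ENSOCUG00000022710 and ENSOCUG00000026654 kept the steadiest ratio, with 4.73, 4.11 and 4.66 counts of the first for each count of the second in hernia replicates 1 and 2 and occlusion replicate 1. The ratio of ENSOCUG00000024894 to ENSOCUG00000026654 moved most, at 2.20, 1.41 and 2.12. Across the same libraries, single members changed by 2.27-fold to 3.41-fold between hernia replicate 2 and occlusion replicate 1. Among these libraries levels thus moved more than proportions did. Outside them, on few counts, proportions were not all kept. ENSOCUG00000025949 to ENSOCUG00000022710 stood between 3.66 and 4.42 in these libraries. It was 1.33 in occlusion replicate 2 and 0.107, 0.947 and 0.333 in controls 1 to 3. ENSOCUG00000022710 to ENSOCUG00000026654 was 4.125 in occlusion replicate 2, near its ratios above.

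**Figure D2:**
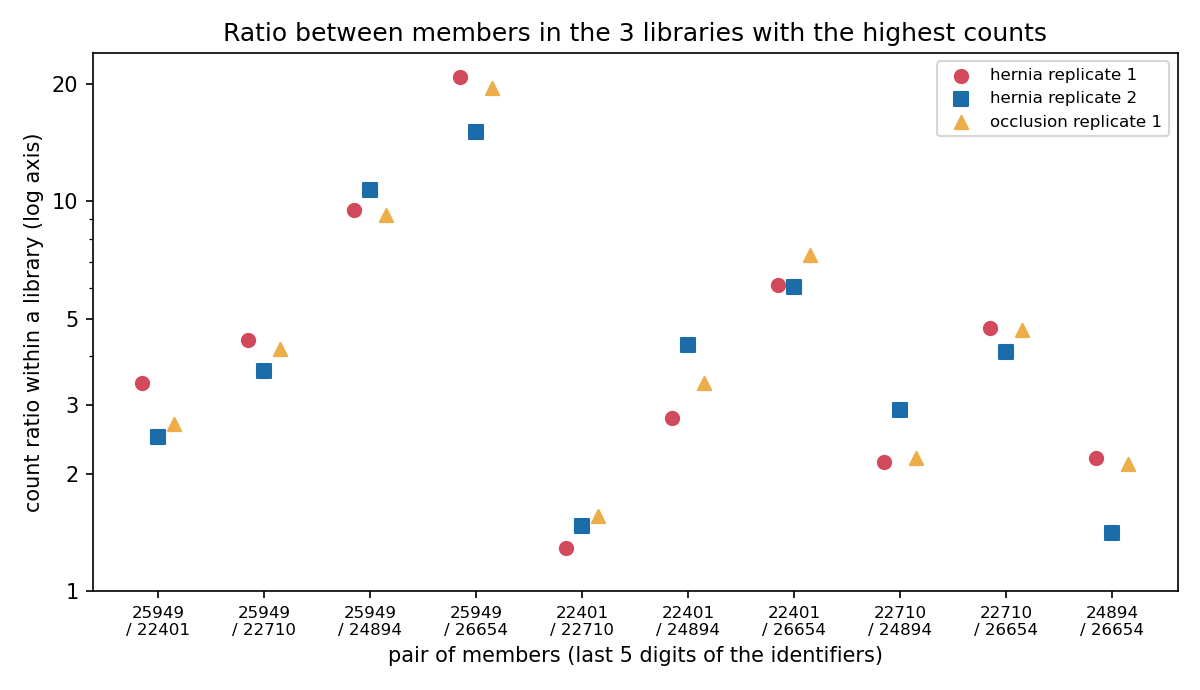
Ratio of the counts of 2 members (log axis) for each of the 10 pairs, in hernia replicates 1 and 2 and occlusion replicate 1. Ratios also reflect gene length, so only their change between libraries is read; within a pair the highest is between 1.15 and 1.56 times the lowest.

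In the other 7 libraries no member exceeded 44 counts. The highest count of ENSOCUG00000025949 there was 44 in occlusion replicate 2 (95% Poisson interval 32.0 to 59.1), and the lowest was 3 in control replicate 1 (0.619 to 8.77). Control replicate 2 had 18 counts of this gene (10.7 to 28.4), an interval that does not meet that of replicate 1. The counts of ENSOCUG00000024894 ran from 3 to 6 and those of ENSOCUG00000026654 from 2 to 8, with intervals that all overlapped. For these 2 genes, differences among the 7 libraries were not detectable at this depth.

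**Figure D3:**
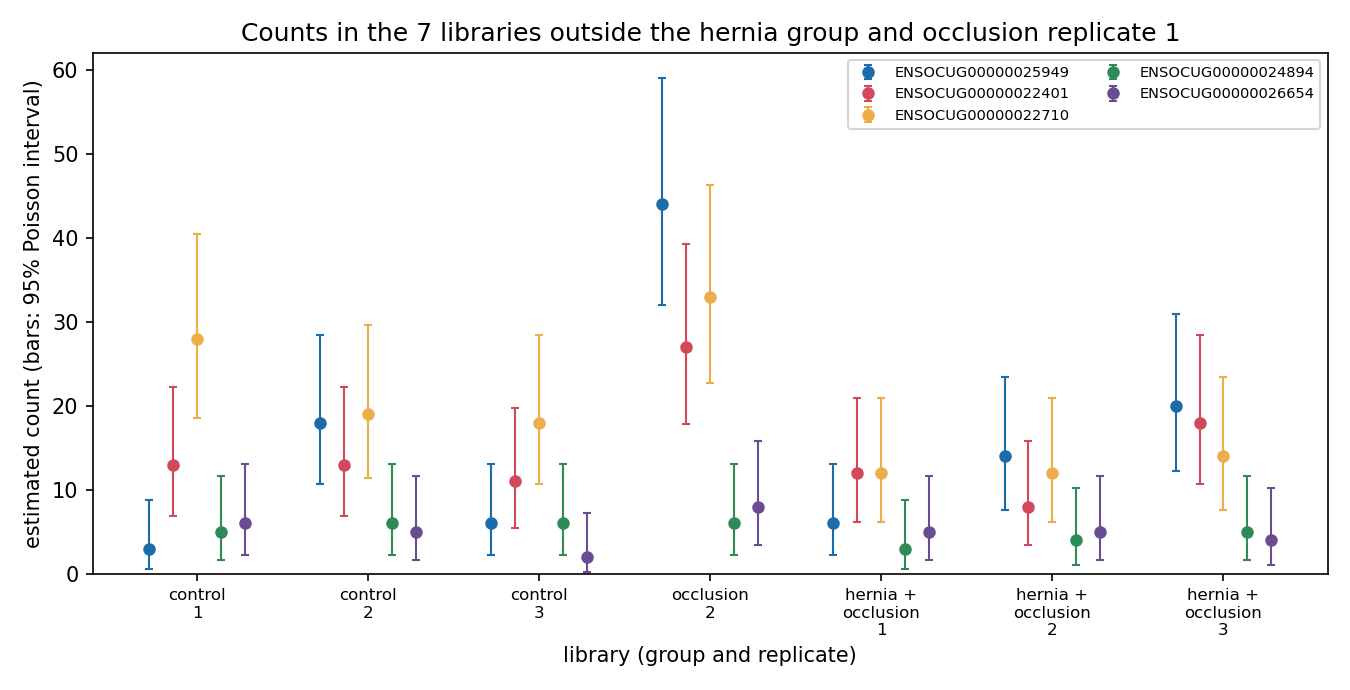
Estimated counts of the 5 genes in the 7 libraries other than the hernia group and occlusion replicate 1; bars are 95% Poisson intervals. Occlusion replicate 2 holds the highest counts of ENSOCUG00000025949 (44), ENSOCUG00000022401 (27) and ENSOCUG00000022710 (33), and ENSOCUG00000024894 stays between 3 and 6 throughout.

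Over the 10 libraries, Pearson's r of log2(CPM + 0.5) between 2 members ran from 0.975 to 0.994 over the 10 pairs, with a median of 0.989. Spearman's rho, which weighs the low libraries as much as the high ones, ran from 0.600 to 0.927, with a median of 0.770. The points share libraries and totals, and the members were listed for this co-variation. In the 6 control and hernia with occlusion libraries the median r was 0.123, with 4 of 10 pairs negative. A member has between 2 and 28 counts in those libraries, and counting error lowers r, so absence of co-variation was not shown there. In the 8 libraries outside the hernia group the median r was 0.974, and in the 7 that remain without occlusion replicate 1 as well it was 0.558. The co-variation over 10 libraries is thus mostly that of the hernia libraries and occlusion replicate 1 with the rest.

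The members stood out in how far they varied. The log2 range over libraries was 8.18 for ENSOCUG00000025949, 6.41 for ENSOCUG00000022401, 5.56 for ENSOCUG00000022710, 4.82 for ENSOCUG00000024894 and 4.43 for ENSOCUG00000026654, where the median over tested genes was 0.73. Between 0.0299% and 0.628% of tested genes had a range at least as wide as the respective member. Of the 13374 other genes, 79 varied at least as widely as ENSOCUG00000026654. The highest r with the members' mean profile among these 79 was 0.749, for ENSOCUG00000006106. That gene stood at 35.7 and 9.08 CPM with a hernia, but at 1.06 CPM in occlusion replicate 1 and between 0.331 and 2.33 CPM in the other 7 libraries.

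Likeness of any gene was measured as Pearson's r of its log2(CPM + 0.5) with the mean standardized profile of the 5 members over 10 libraries. The other genes had a median r of 0.051, with 5th and 95th percentiles of -0.571 and 0.598. Exactly 1 gene reached 0.9 and 47 reached 0.8. For each of the 5 members, the other 4 members were the 4 most similar of all tested genes, ahead of any gene outside the list. The first gene outside was ENSOCUG00000011869 for 3 members, with r between 0.896 and 0.928, ENSOCUG00000021527 for ENSOCUG00000025949 (0.912) and ENSOCUG00000024015 for ENSOCUG00000026654 (0.899).

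The 10 most similar genes had r between 0.866 and 0.902, and 2 of them varied over more than 2 log2 units. ENSOCUG00000011869 (r = 0.902, rho = 0.661) stood between 1.66 and 1.93 CPM in controls, at 25.9 and 8.45 CPM with a hernia, at 14.3 and 0.851 CPM with occlusion, and between 1.24 and 1.38 CPM with both operations. It was high in the same 3 libraries as the members, but higher in hernia replicate 1 than in replicate 2, the opposite of all 5. ENSOCUG00000024882 (r = 0.867, rho = 0.770) stood at 4.46 and 11.4 CPM with a hernia and 2.63 CPM in occlusion replicate 1. Its other libraries lay between 0.363 and 1.86 CPM.

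The other 8 similar genes changed far less than the members. ENSOCUG00000024509 had a log2 range of 1.46 and ENSOCUG00000007326 one of 1.23, and the remaining 6 ranged over less than 1 log2 unit. These were ENSOCUG00000024015, ENSOCUG00000026236, ENSOCUG00000021527, ENSOCUG00000005425, ENSOCUG00000021159 and ENSOCUG00000012919. ENSOCUG00000024015 (r = 0.893) is an example, at 33.4 to 37.0 CPM in controls, 48.0 and 47.3 CPM with a hernia, 39.8 and 40.4 CPM with occlusion, and 34.8 to 36.3 CPM with both.

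At the other end, the 5 genes with the most opposite profile had r between -0.902 and -0.869 and log2 ranges of 0.55 to 1.35. ENSOCUG00000001933 stood at 61.2 to 73.3 CPM in controls, 43.6 and 36.1 CPM with a hernia, 53.1 and 59.4 CPM with occlusion, and 57.6 to 72.7 CPM with both. ENSOCUG00000011982 (r = -0.874) lay between 38.8 and 50.1 CPM in controls, and was at 28.0 and 19.3 CPM with a hernia and 26.4 CPM in occlusion replicate 1. The others were ENSOCUG00000026835, ENSOCUG00000005824 and ENSOCUG00000003594. Among the 79 genes outside the list that varied at least as widely as ENSOCUG00000026654, the lowest r was -0.683.

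**Figure D4:**
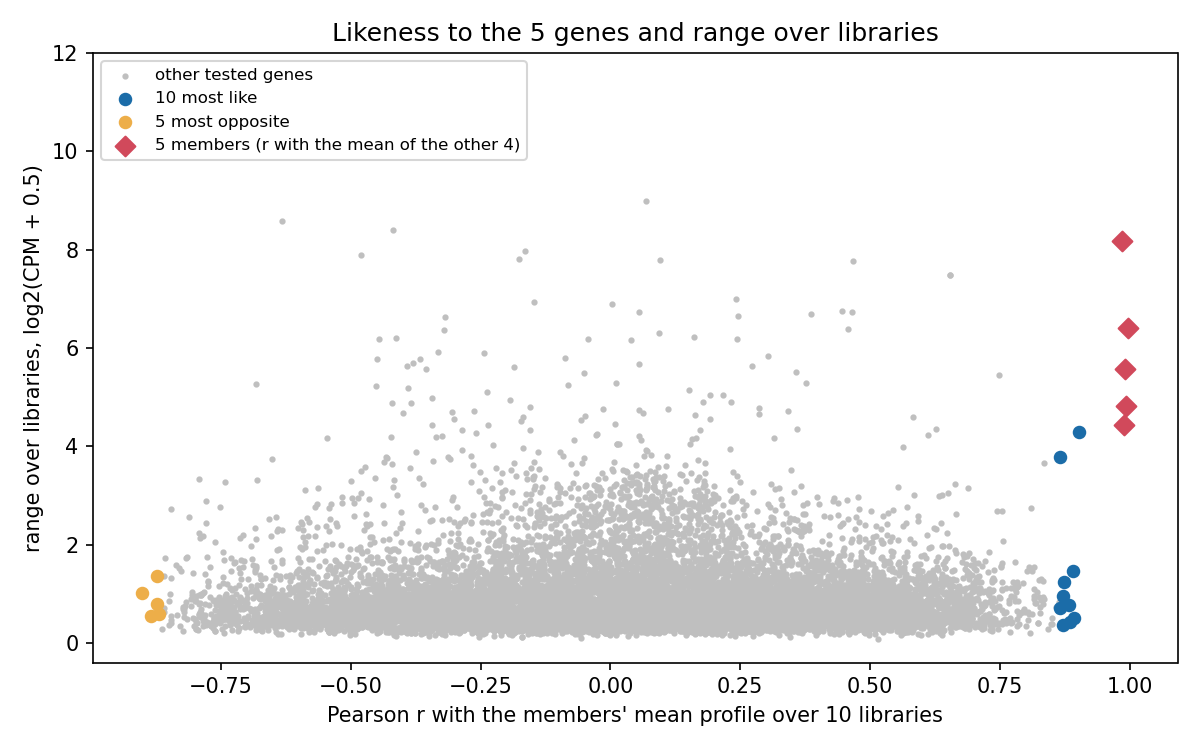
Each tested gene by Pearson's r with the mean profile of the 5 genes (x axis) and its range over the 10 libraries in log2(CPM + 0.5) (y axis). The 5 members (red) lie at r of 0.985 or more with the mean of the other 4 and ranges of 4.43 to 8.18; the 10 most similar genes (blue) reach at most 0.902.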

How the data were processed

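The authors deposited 1 table of whole-number values for 10 libraries. Its name speaks of CPM, but the columns sum to between 16.4 and 22.2 M, so the deposited values were treated as estimated counts. Per the submitters' processing notes, kallisto 0.42.2.1, edgeR and the build OryCun2.0 were used; no source used here states how transcripts were summed, rounded or filtered. Reads of similar gene copies may have been divided between them: 19 tested identifiers share all their counts with another, none of them a member. The members, lists and rules were chosen with earlier results of these data known. CPM was the count over the column total. Pooled ratios carry exact 95% binomial counting intervals. As background, all 13379 genes that passed 1 CPM in 2 or more libraries were tested with edgeR 4.0.16 (R 4.3.3, TMM, quasi-likelihood, 4 group means, 6 residual degrees of freedom, Benjamini-Hochberg adjusted p under 0.05), after the script was tested on simulated data, with DESeq2 1.42.0 and, added after seeing the data, with limma 3.58.1 (voom). Such p-values measure the spread between libraries, which may be technical. Named besides the members were the 10 most similar and 5 most opposite genes, and the closest outside gene of each member. ENSOCUG00000006106 was chosen after its values were seen. No column was left unused.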

Additional observations from a re-analysis of the deposited data

Results flagged for a closer look

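The mean occlusion effect had opposite signs without and with a hernia in all 5 genes, and in 4 of the 5 every library followed. In these 4, both occlusion libraries lay above every control, and every library with hernia and occlusion lay below both hernia libraries. Singly, these conditions held for 9.34% and 20.6% of all tested genes, and the share meeting both was not computed. For ENSOCUG00000026654 the first rests on 8 counts in occlusion replicate 2 against 6 in control replicate 1, with overlapping counting intervals. The effect with a hernia minus that without, on the log2(CPM + 0.5) scale, was -10.93 for ENSOCUG00000025949, -8.09 for ENSOCUG00000022401, -6.91 for ENSOCUG00000022710 and -4.98 for ENSOCUG00000026654. ENSOCUG00000024894, at -6.07, was not among the 4, since occlusion replicate 2 lay inside its control range by column totals. With TMM library sizes that library lay just above the range. The interaction term across all genes called 0 of 5 members in edgeR and 5 of 5 in DESeq2, but the genes were chosen on these values, so neither count is support. The effect without a hernia rests mainly on occlusion replicate 1.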

How the results depend on the processing

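Of the 306 log2 differences recomputed for the members and their median, 5 changed sign, all of them near 0 and between hernia with occlusion and control: ENSOCUG00000022401, at -0.03, was 0.13 without hernia with occlusion replicate 2 and 0.0040 without control replicate 1, ENSOCUG00000026654, at 0.03, was -0.09 without control replicate 3, and the median, at -0.03, was 0.02 and 0.0040 without the same 2 libraries as ENSOCUG00000022401. The differences of hernia from control ran from 2.87 to 8.29, and those of hernia with occlusion from hernia from -7.72 to -2.86. Those with the occlusion group were less steady, from 0.06 to 6.33 for occlusion against control and from -5.99 to -0.25 for hernia with occlusion against occlusion. Hernia with occlusion against control ran from -0.83 to 0.63. The median pairwise r of 0.989 was 0.770 as Spearman's rho, 0.981 with a pseudocount of 0.1, and, in subsets chosen after seeing the data, 0.974 without the hernia group, 0.558 without that group and occlusion replicate 1, and 0.123 in controls and hernia with occlusion; leaving out 1 library gave 0.986 to 0.991. Other genes with r of at least 0.9 numbered 6 by Spearman's rho and 10 on linear CPM, and 2 to 23 with 1 library left out, the highest without occlusion replicate 1.

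Genes called over the whole table, in the order hernia against control, occlusion against control, hernia with occlusion against hernia, against control and against occlusion, and the interaction, were 1, 2, 1, 3, 0 and 0 in edgeR and 148, 22, 842, 466, 26 and 66 in DESeq2. At an unadjusted p under 0.05 the last 2 had 633 and 1324 genes in edgeR. The 633 are no more than that cutoff alone would give. Fitting only the groups compared gave 12, 1, 9 and 6 calls in the first 4. Leaving out 1 library gave 0 to 17, 0 to 9, 0 to 439, 1 to 13, 0 to 68 and 0 to 11; the highest came without occlusion replicate 1 or 2. In the same order, the members called ranged over all settings from 0 to 5, 0 to 4, 0 to 5, 0 to 0, 0 to 4 and 0 to 5. In DESeq2 the members called were 5, 4, 3, 0, 4 and 5. The shares of all genes it called in the members' direction were 0.381%, 0.0897%, 2.77%, 3.48% (either direction), 0.164% and 0.232%. Fits to the groups compared alone tested as few as 1 member. TMM scaling changed the share of genes with hernia libraries above every control from 20.7% to 17.9%. No analysis paired by replicate number was possible because the numbers follow accession order and pair nothing. Title stems, whose meaning no label gives, left 0 residual degrees of freedom as a fixed block. With the stem as a correlated block in limma voom, added after seeing the data, the calls were 3, 2, 2, 3, 0 and 0. That block rests on 2 stems that hold 2 libraries each. Without it the calls were 3, 1, 2, 3, 0 and 0, and 0 members were called in either fit. At an unadjusted p under 0.05 the last 2 had 438 and 1160 genes with the block, and 562 and 1301 without. The 438 and 562 are again no more than that cutoff alone would give. The estimated correlation was -0.374. Depth limits ENSOCUG00000024894 and ENSOCUG00000026654, with 2 to 8 counts in 7 libraries.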
